A study of Homo sapiens with 10 samples.

Results

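The segment of 28S rRNA from position 3660 to position 3899, numbered so that 28S begins with base 0, was densely set with known 2′-O-methylated riboses. Its members were all 240 positions in that range of the 6939 positions of 18S and 28S, in every library. Among them were 16 of the 106 known sites (66 in 28S and 40 in 18S), taken from the study's curated list of sites. That is 1 known site per 15.0 nt in the segment against 1 per 76.8 nt over the whole of 28S. Neighbouring known sites of the segment lay 2 to 26 nt apart (median 12 nt, against 16 nt in 28S), and 5 of the gaps were under 10 nt. Over all windows of 240 nt in 28S, the highest number of known sites was 17, and among windows that did not touch the segment it was 12. By the letters of the genome the listed sites were 6 A, 5 C, 4 G and 1 U. The G at 3719 among them is given as A in the list. The study also proposed 2 candidate sites here, A3717 and G3885.

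All libraries came from PA1, a human cell line derived from an ovarian teratoma, and the labels give neither a genotype nor a treatment beyond the line itself. In RibOxi-seq, total RNA is cut at random with Benzonase. Periodate then oxidizes the 3′-ends whose ribose carries free 2′ and 3′ hydroxyls, so that they can no longer be ligated, and β-elimination moves the end back by 1 base. Fragments that end on a 2′-O-methylated ribose are protected and enter the oxidized library. The control libraries came from fragmented RNA that skipped oxidation and β-elimination. The deposited counts tally the 3′-ends of aligned fragments by position, in a unit that is not 1 read, and do not give the fraction of molecules methylated there. The NextSeq experiment had 3 control and 3 oxidized libraries, in which replicate 3 of both groups was made from passage 4 and replicates 1 and 2 from passage 6. The MiSeq pilot, with less input RNA, had 2 control and 2 oxidized libraries from passage 7. The replicates are described as technical and come from 1 cell line, so the p-values measure the spread between these libraries. Because the counts cover rRNA only, the identity of the cells could not be checked against marker genes.

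Ribose methylation of rRNA is placed by box C/D small nucleolar RNAs (snoRNAs). A guide stretch of the snoRNA pairs with the rRNA, and the methyltransferase fibrillarin modifies the rRNA base that pairs with guide base 5 upstream of box D or D′, whose usual letters are CUGA. Helix 69, within this segment, is a conserved hairpin of the large subunit that reaches across to the small subunit in the ribosome and touches the tRNAs. The segment lies on contig GL000220.1:117008-117247 of GRCh37, plus strand, in the 28S gene. A second identical copy on the contig starts at 160980, and the counts cannot tell the copies apart. The segment is shown whole because the spacing of the sites is the subject. Capitals mark the known sites and the 2 candidates, and the second line is the loop of helix 69 with its methylated base in capitals (positions 3756 to 3766, GL000220.1:117104-117114).
28S segment: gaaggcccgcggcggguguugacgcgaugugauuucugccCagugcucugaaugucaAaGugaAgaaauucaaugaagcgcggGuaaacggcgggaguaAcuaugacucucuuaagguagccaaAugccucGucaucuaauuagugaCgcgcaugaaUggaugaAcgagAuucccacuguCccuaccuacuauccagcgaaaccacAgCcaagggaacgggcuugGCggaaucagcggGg
helix 69 loop: guaAcuaugac

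The study's list names a snoRNA for these sites, and 14 of the listed guides had a gene in the annotation used here whose sequence could be scanned. Among them is SNORA48, listed for U3817, whose symbol is not that of a box C/D gene (SNORD) and which gave no CUGA match. These 14 guides cover 11 of the 16 sites. For 9 of those 11, a CUGA box placed guide base 5 exactly on the listed site, with at least 9 unbroken Watson-Crick or G-U pairs. Matches of this kind fell on 13 of the 240 positions (5.42%), of which 4 were not known sites. The guide stretches are shown to set each of these sites beside the listed guide that can pair there. No snoRNA was measured or changed in these data, so the assignment rests on the list and the pairing. The stretches are written 5′ to 3′ through the box, with the base that faces the methylated ribose in capitals.
SNORD88B and SNORD88C to C3700: agcacuGggcucuga
SNORD36C to A3723: gaauuucUucaccuga
SNORD46 to A3759: gucauagUuacacuga
SNORD15A and SNORD15B to A3784: gaggcaUuugucuga
SNORD15A to G3791: gaugaCgagucuga
SNORD10 to C3807: caugcguGucaucuga
SNORD17 to U3817: guuuauccAuucgcuga
SNORD92 to A3866: uuccuuggcUgugucuga
SNORD53 to C3868: uucucuugGcugucuga
SNORD46, on chromosome 1 at 45242162-45242265 (GRCh37, plus strand), matched positions 3756 to 3766 without a G-U pair. The stretch printed for the loop of helix 69 has the same ends as this match, so full pairing along it follows from those ends. SNORD15A carries guides for A3784 and for G3791, 7 nt apart. SNORD92 (chromosome 2 at 29136530-29136614) and SNORD53 (chromosome 2 at 29149933-29150010) are the guides listed for A3866 and C3868. Their matched stretches overlap, so that pairing of one would cover the other's site. With a box that differs from CUGA by 1 letter, SNORD12 matched G3898 and SNORD37 matched A3717, which is returned to with the counts there.

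Each library held between 1353768 and 80964624 counts, with 72458614 to 80964624 in NextSeq controls, 12293410 to 13694386 in oxidized NextSeq libraries, 30392418 and 44061905 in MiSeq controls, and 1353768 and 1568883 in oxidized MiSeq libraries. Values are given below as CPM, a library's counts scaled to a total of 1000000 over 18S and 28S. Low counts gather in steps of 50, and the totals of the control libraries exceed the sequencer output that the study states for them, for which the sources used here give no reason. A count is therefore not a read, and the floor that a count of 0 allows was taken as 3 steps, or 150 counts. It corresponds to 1.85 to 2.07 CPM in NextSeq controls and to 10.95 to 12.2 CPM in oxidized NextSeq libraries. In the MiSeq pilot it is 3.40 and 4.94 CPM in controls and 95.6 and 111 CPM in oxidized libraries, so many of the low values printed below lie under it. These floors cover counting error only. All 240 positions had counts in every NextSeq control, whereas 26 to 36 were at 0 in oxidized NextSeq libraries, 14 and 15 in MiSeq controls, and 59 and 71 in oxidized MiSeq libraries. On steps of 50, the 2 oxidized MiSeq libraries differed by no more than sampling noise (a chi-square of 1.05 for each degree of freedom, p = 0.179). By the same measure NextSeq controls 1 and 2 (1.123) and oxidized NextSeq replicates 2 and 3 (1.15) were nearly as alike, but both differed beyond that noise at the 0.05 level, whereas the other NextSeq pairs stood at 11.1 to 215. The oxidized MiSeq libraries were kept as 2 because the group has no other pair to compare, and results with them summed are given with the alternatives.

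Along the segment, 2 stretches of the control libraries stood apart. In the NextSeq controls, replicate 3 differed from replicates 1 and 2: over the segment its rank correlation with them was 0.149 and 0.141, against 0.996 between those. It was the only control from passage 4, so library and passage cannot be told apart in this difference. The median of unlisted positions from 3760 to 3779 was 117 and 122 CPM in replicates 1 and 2 and 1164 CPM in replicate 3. From 3780 to 3799 it was 95.9, 92.6 and 1086 CPM. Control ends from the helix 69 side to the middle of the segment were thus about 10 times as abundant in that library. In the MiSeq controls, the opposite was seen nearby: 10 positions between 3798 and 3817 had no count in either library, and the longest run with at most 200 counts in both was 18 nt, from 3798 to 3815. In the oxidized MiSeq libraries, the unlisted positions from 3800 to 3819 had medians of 160 and 186 CPM. The part of these stretches in the results was not tested.

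**Figure D1:**
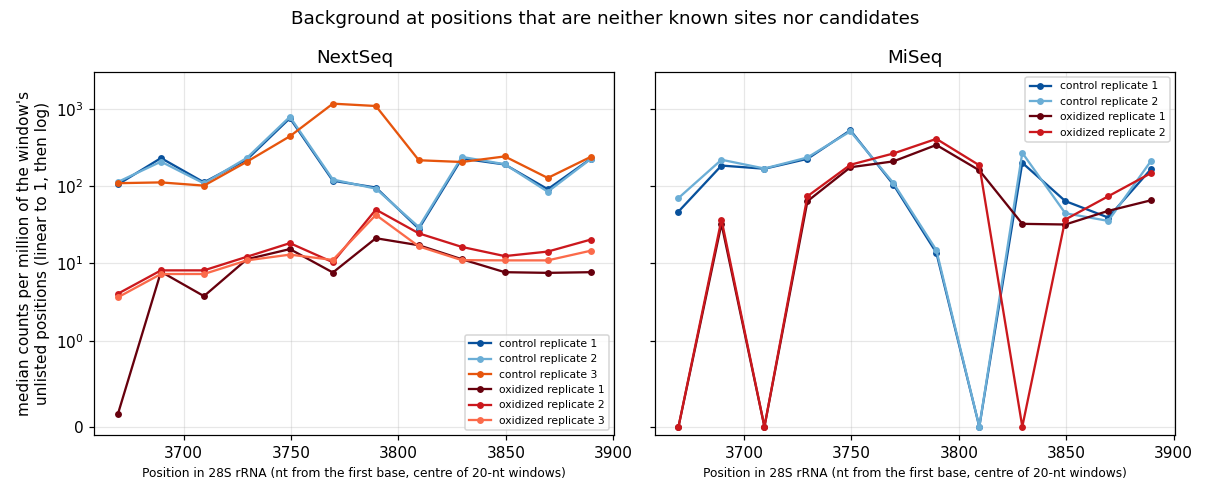
Median CPM of the positions that are neither known sites nor candidates, in 20-nt windows along the segment, with 1 line per library; the y axis is linear up to 1 and logarithmic above. Control replicate 3 of the NextSeq experiment rises to 1164 and 1086 CPM between 3760 and 3799, and both MiSeq controls fall to 0 between 3800 and 3819.

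The segment took a larger share of the ends after oxidation. In NextSeq controls 9.27% ± 0.07 (SD, n = 3) of all counts lay in it, and in oxidized libraries 14.5% ± 1.33 (SD, n = 3), with values of 13.01%, 15.2% and 15.4%. The groups did not overlap, and the exact permutation test (two-sided) gave p = 0.1, the smallest that 3 against 3 libraries allow. In the MiSeq pilot the shares were 4.76% and 4.95% in controls and 19.1% and 19.5% in oxidized libraries (exact permutation test, p = 0.333, again the smallest possible). Within the segment, the known sites held 92.8%, 91.5% and 92.1% of the oxidized NextSeq counts, and 1.22%, 1.29% and 2.32% of the control counts. In the pilot they held 77.6% and 77.7% of the oxidized counts and 1.003% and 0.935% of the control counts. Of all counts at known sites of 18S and 28S, the 16 sites here took 12.7%, 14.7% and 15.0% in the oxidized NextSeq libraries. In the NextSeq controls they took 31.6%, 31.1% and 29.2%. In the pilot these shares were 25.1% and 25.6% in oxidized libraries and 27.7% and 26.8% in controls. The sites make up 15.1% of the list. Among known sites alone, the share of the segment was thus lower after oxidation.

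**Figure D2:**
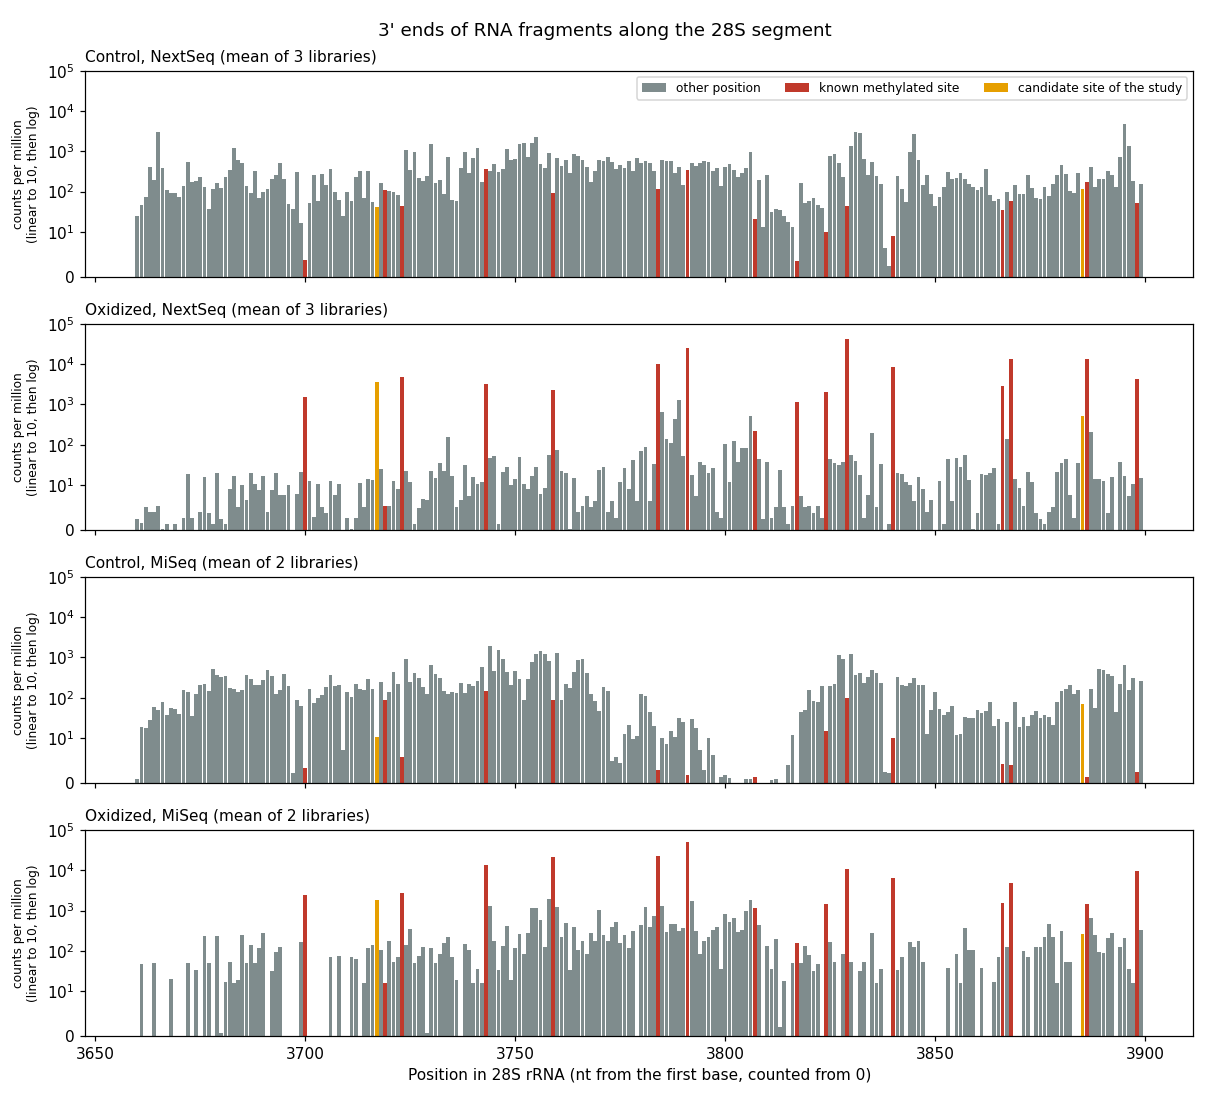
Mean CPM at each position of the segment in the 4 groups, with known sites in red, the study's candidates in yellow and other positions in grey; the y axis is linear up to 10 and logarithmic above. In the oxidized groups the red bars hold 92.1% (NextSeq) and 77.7% (MiSeq) of the counts on average, while in the control groups the grey bars carry nearly all of them.

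Oxidized and control libraries were compared at every position of 18S and 28S with edgeR's quasi-likelihood (QL) test, p-values were adjusted by Benjamini-Hochberg over all of them, and a position was called when its log2 fold change was above 6 with an adjusted p under 0.05. In the NextSeq experiment 15 of the 16 known sites of the segment were called, where 1.58% of all positions tested were. The exception was G3719. Elsewhere in 18S and 28S, 83 of 90 known sites were called. Among the 224 unlisted positions of the segment 2 were called, both of them the study's candidates. The number was 7 when control replicate 3 was left out, which left the 2 nearly alike controls. In the MiSeq pilot 14 of the 16 known sites were called against 2.85% of all positions, and 78 of 90 elsewhere. The exceptions were G3719 and A3866. U3817, which was among those called, had no count in either MiSeq control, so its fitted value depends on the prior count. With its controls set at the floor, the rise was 37.6-fold, which lies under the fold threshold. In the pilot, 16 unlisted positions of the segment were called as well, all but 3 of them between 3785 and 3810. Of these, A3798, A3802, G3803, U3804, G3808 and G3810 also had both MiSeq controls at 0, so their calls depend on the prior count too.

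Group ranges gave nearly the same picture at the known sites. In the NextSeq experiment 15 of the 16 had every oxidized library above every control library, where 1.65% of all positions did, and so did 2 unlisted positions. In the pilot these numbers were 15 known sites and 65 unlisted positions, against 14.4% of all positions. The median log2 fold change of the 16 sites was 10.90 in the NextSeq experiment and 9.62 in the pilot, against medians over all positions of -2.25 and -4.76. With the MiSeq controls of U3817, which were at 0, set at the floor, the pilot's median was 9.33. In the NextSeq experiment the scaling set the level of every fold change: with library totals alone in place of TMM, the median over all positions moved by -4.02 on the log2 scale. Relative to the median position, the known sites stood 13.15 higher with TMM and 12.68 higher with library totals. Of the 240 positions of the segment, 27 were higher and 10 lower after oxidation at an adjusted p under 0.05 with TMM. Over all 6718 positions tested, 203 were higher and 1262 lower. With library totals 16 were higher and 152 lower in the segment, beside 95 and 4332 over all positions. The direction of the segment's unlisted positions therefore followed the scaling, whereas 12 of the known sites were called with library totals as well. In the pilot the same change moved the segment's split from 68 higher and 74 lower to 64 and 83. Over all 6661 positions tested there, it moved from 709 and 3437 to 654 and 3545.

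From the 5′ side, the first known site was C3700. It had 6.96, 3.14 and 1.35 CPM in the NextSeq controls and 1491, 1486 and 1606 CPM in the oxidized libraries. In the pilot it had 3.495 and 3.29 CPM in controls and 2128 and 2605 CPM after oxidation. No control library reached 1% of any oxidized one at this site, for which the SNORD88 guides are listed. The log2 fold change was 12.40 ± 1.30 (SE, QL adjusted p = 0.00436) and, in the pilot, 9.70 ± 0.36 (SE, QL adjusted p = 0.00616).

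At A3723, the SNORD36C site, the NextSeq controls had 2.83, 3.14 and 126 CPM and the oxidized libraries 4456, 4566 and 4997 CPM. The pilot had 6.81 and 4.94 CPM against 2767 and 2719 CPM. The high control value was that of replicate 3, and the groups still lay far apart. Fold changes were 11.29 ± 1.85 (log2, SE, QL adjusted p = 0.0359) and 9.11 ± 0.43 (QL adjusted p = 0.00693). G3743 had more control ends than any other known site of the segment in NextSeq replicates 1 and 2, with 493, 540.0 and 75.4 CPM against 3286, 3253 and 3347 CPM after oxidation. In the pilot, 140.1 and 147 CPM stood against 13301 and 14056 CPM. Its log2 fold change, 6.87 ± 1.14 (SE, QL adjusted p = 0.0359) and 6.83 ± 0.24 (QL adjusted p = 0.00594), was the smallest among the called known sites of either experiment.

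A3759, in the loop of helix 69 printed above, is the site paired by SNORD46. Its control values were 8.31, 6.93 and 266 CPM in the NextSeq experiment, and oxidation gave 1860.3, 2429.7 and 2575 CPM. The pilot had 86.7 and 89.0 CPM in controls and 21659 and 20928 CPM in oxidized libraries. By mean oxidized level it stood below 10 other known sites of the segment in the NextSeq libraries and among the 3 highest in the pilot. The log2 fold changes were 9.15 ± 1.65 (SE, QL adjusted p = 0.0359) and 8.18 ± 0.25 (QL adjusted p = 0.00555), and their difference of 0.73 ± 1.51 was not past the threshold (QL adjusted p = 0.966). No other position of the loop was called in either experiment.

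The SNORD15A pair followed. A3784 had 2.79, 4.94 and 339 CPM in NextSeq controls and 7946, 11427 and 11656 CPM after oxidation, and in the pilot 2.27 and 3.29 CPM against 22175 and 23807 CPM. G3791 had 109, 92.3 and 829 CPM against 18557, 27479 and 27458 CPM, and in the pilot 3.45 and 0 CPM against 49575 and 50140.1 CPM. In every oxidized library of both experiments G3791, the 3′ member of the pair, exceeded A3784. The log2 fold change of A3784 was 11.07 ± 2.16 (SE, QL adjusted p = 0.0359) in the NextSeq experiment and 13.28 ± 0.38 (QL adjusted p = 0.00555) in the pilot. That of G3791 was 10.53 ± 0.99 (SE, QL adjusted p = 0.00268) and 14.99 ± 3.14 (QL adjusted p = 0.0197). Both sites lie in the stretch where control replicate 3 was high, and both were called without it.

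C3807, the SNORD10 site, had the fewest oxidized counts of any called known site in the NextSeq experiment. It had 18.2, 27.9 and 16.0 CPM in controls and 209, 258 and 196 CPM after oxidation. In the pilot the values were 1.13 and 1.65 CPM against 1225 and 1154 CPM. The log2 fold change was 7.27 ± 0.87 (SE, QL adjusted p = 0.00858) and 10.004 ± 0.39 (QL adjusted p = 0.00616). Its 5′ neighbour A3806 held more ends than the listed site itself: 235.6% ± 47.1 (SD, n = 3) of the count at C3807 in oxidized NextSeq libraries and 153% ± 8.39 (SD, n = 2) in the pilot. A3806 had 234, 198 and 2459.5 CPM in NextSeq controls against 393, 612 and 554 CPM, so that its groups overlapped. The fold change there was 3.53 ± 0.94 on the log2 scale (QL adjusted p = 0.0424) with TMM and -0.89 with library totals, which is 5.78 and 5.37 above the median position. The adjusted p was 0.105 and 0.091 without control replicate 1 or 2.

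U3817 is the only methylated U of the segment, and SNORD17 pairs with it. It had 0.690, 1.88 and 7.95 CPM in NextSeq controls and 994, 1169 and 1362 CPM after oxidation, a log2 fold change of 12.71 ± 1.16 (SE, QL adjusted p = 0.00264). In the pilot neither control had a count there, and the oxidized libraries had 127 and 186 CPM. With each control library set at the floor of 150 counts, the mean of the oxidized libraries was 37.6-fold higher. The oxidized values lie close to their own floors of 95.6 and 111 CPM, so this is not a strict lower bound. The site lies at the edge of the stretch where the MiSeq controls had almost no ends.

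A3824 had 1.42, 4.94 and 24.0 CPM in NextSeq controls and 1872, 1843 and 2234 CPM after oxidation. The pilot gave 6.85 and 23.1 CPM against 1344 and 1525 CPM. The fold changes were 11.97 ± 1.24 (log2, SE, QL adjusted p = 0.00422) and 6.88 ± 0.80 (QL adjusted p = 0.00693). Then came the highest peak of the segment, A3829. It had 37.4, 73.3 and 22.7 CPM in NextSeq controls and 45795, 38873 and 40048 CPM after oxidation, which was 28.9% ± 5.44 (SD, n = 3) of all oxidized counts in the segment. In the pilot, with 109 and 89.2 CPM against 11299.8 and 10254 CPM, 4 other known sites stood above it. Its log2 fold change was 13.66 ± 1.06 (SE, QL adjusted p = 0.00133) and 7.01 ± 0.32 (QL adjusted p = 0.00693). C3840 was low in every control, at 6.28, 8.08 and 12.6 CPM in the NextSeq experiment against 6821, 9005 and 9224 CPM after oxidation. In the pilot it had 10.2 and 9.87 CPM against 5924 and 6636 CPM. The log2 fold change of 13.89 ± 0.65 (SE, QL adjusted p = 0.0004) was the largest of the segment's known sites in the NextSeq experiment, and that of the pilot was 9.54 ± 0.31 (QL adjusted p = 0.00555).

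On the 3′ side, A3866 and C3868 are 2 nt apart and both were seen. A3866, the SNORD92 site, had 24.9, 24.2 and 57.8 CPM in NextSeq controls and 2028, 3227 and 3217 CPM after oxidation. C3868, the SNORD53 site, had 47.9, 49.6 and 79.1 CPM against 9604, 14965 and 15656 CPM. The 3′ site of the pair was the higher in all oxidized libraries. The pilot had 0 and 8.23 CPM against 1569 and 1525 CPM at A3866, and 1.13 and 6.65 CPM against 4592 and 5270.5 CPM at C3868. Log2 fold changes at A3866 were 10.40 ± 0.67 (SE, QL adjusted p = 0.000737) and 8.88 ± 3.02 (QL adjusted p = 0.0689, past the fold but not the p threshold, with 1 of the pilot's 2 controls at 0). At C3868 they were 11.84 ± 0.61 (SE, QL adjusted p = 0.0004) and 10.62 ± 1.27 (QL adjusted p = 0.00693). G3898, the last site, had 16.6, 13.1 and 128 CPM in NextSeq controls and 4037, 4409 and 4413 CPM after oxidation, with 4.58 and 0.0658 CPM against 9508 and 9537 CPM in the pilot. Its log2 fold change was 10.73 ± 1.06 (SE, QL adjusted p = 0.00357) and 12.18 ± 2.58 (QL adjusted p = 0.0202).

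**Figure D3:**
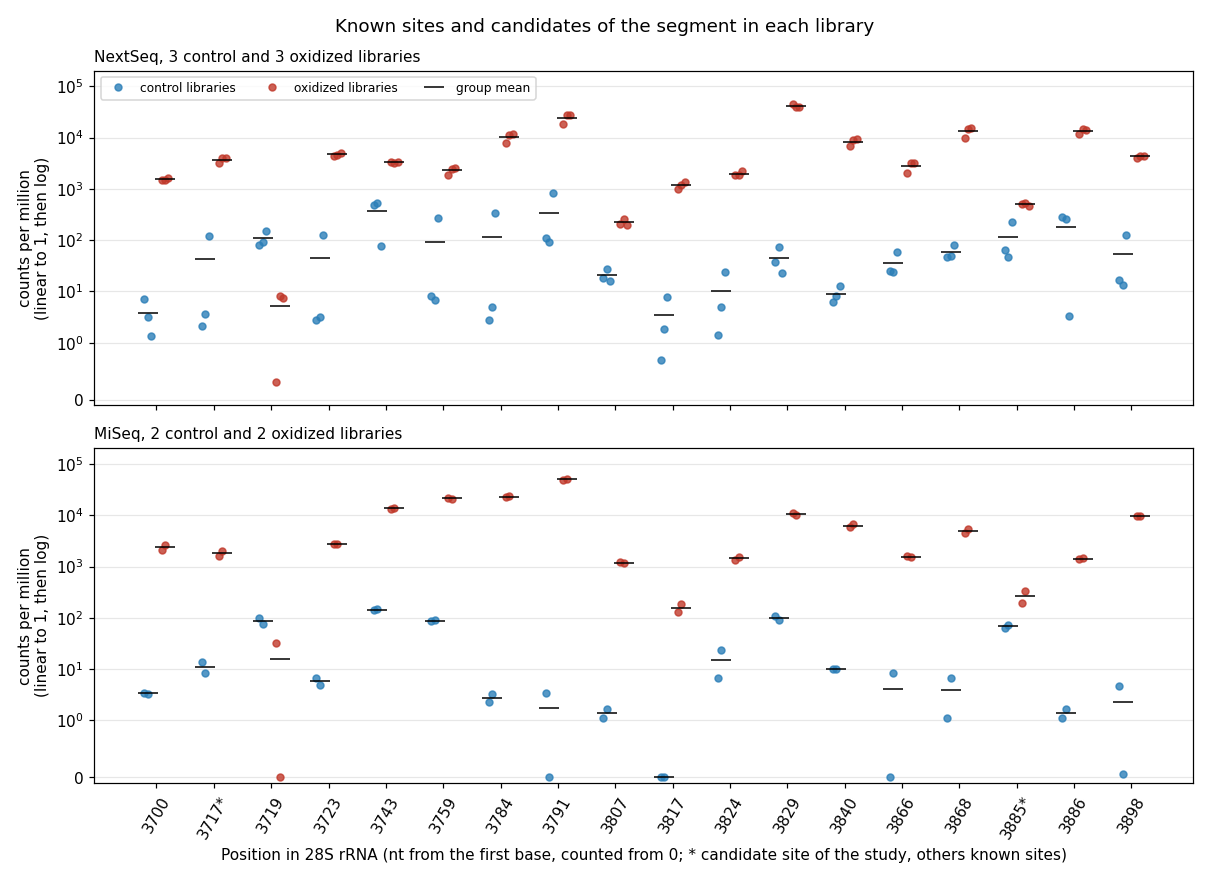
CPM of the 16 known sites and the 2 candidates (starred) in every library, controls in blue and oxidized libraries in red, with the group mean as a bar; the y axis is linear up to 1 and logarithmic above. At 15 of the 16 known sites the oxidized libraries lie above all controls in both experiments, and at position 3719 they do not.

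By oxidized level in the NextSeq libraries, the sites ran from A3829 through G3791, C3886, C3868, A3784, C3840, A3723, G3898, G3743, A3866, A3759, A3824, C3700, U3817 and C3807 to G3719, with the candidate A3717 between G3898 and G3743 and the candidate G3885 between U3817 and C3807. The ranges of neighbours overlapped from C3886 to C3840, between A3717 and G3743, and from A3866 to A3824. In the pilot the order began with G3791, A3784, A3759, G3743 and A3829, and ended with C3807, G3885, U3817 and G3719. Of the 16 known sites, 8 had a higher CPM in every oxidized NextSeq library than in either oxidized MiSeq library, 7 had a lower one, and G3719 overlapped. The mean CPM of C3886 was 9.58 times as high in the NextSeq libraries, that of U3817 7.49 times and that of A3829 3.86 times. In the other direction, A3759 was 9.30 times as high in the pilot, C3807 5.38 times and G3743 4.15 times. These levels were not tested, since experiment, input, passage and sequencer changed together and cannot be told apart.

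The listed site at 3719 was the only known site of the segment that was not seen. The list gives its base as A and the genome has G there (A3719G, the listed base first), whereas the listed bases matched the genome at 64 of the 66 sites of 28S. G3719 had 81.4, 91.4 and 149.7 CPM in NextSeq controls and 0.302, 8.13 and 7.45 CPM after oxidation. In the pilot it had 101 and 74.7 CPM against 31.9 and 0 CPM. All controls were above all oxidized libraries, and the log2 fold change was -0.34 ± 1.15 (SE, QL adjusted p = 0.863) and -2.21 ± 1.95 (QL adjusted p = 0.381), neither past the threshold. With library totals the NextSeq value was -4.34 (QL adjusted p = 0.0302), and relative to the median position it was 1.91 with TMM and 1.92 with library totals.

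The candidate A3717, 2 nt upstream, had 2.07, 3.71 and 120.0 CPM in NextSeq controls and 3239, 3954 and 3906 CPM after oxidation (mean 3699.7 ± 399.9, SD, n = 3). In the pilot it had 13.6 and 8.23 CPM against 1618 and 1980.4 CPM. The study chose A3717 on these libraries, so its log2 fold changes of 11.02 ± 1.85 and 7.60 ± 0.53 (SE) are given as a description. Apart from these libraries, the study tested A3717 by primer extension at a low dNTP concentration and reports the site as borne out. The study names HBII-180B (SNORD88B) and U37 (SNORD37) as potential guides. No match of SNORD88B, with a CUGA box or a 1-letter variant, placed guide base 5 on A3717. The study's criterion also allowed the base beside base 5. The scan took guide base 5 only and asked for at least 9 unbroken pairs, so it does not test that wider criterion. SNORD37 (chromosome 19 at 3982505-3982570, minus strand, GRCh37) is the guide listed for position 3719. Its stretch upstream of a CAGA box, which differs from CUGA by 1 letter, places guide base 5 on A3717 with 16 unbroken pairs and no G-U pair, and no match of either box placed it on G3719. A UUGA box of the same snoRNA placed it on A3722, with 11 pairs and no G-U pair. The stretch is shown with the rRNA around both positions (3708 to 3728, GL000220.1:117056-117076), where capitals mark A3717 and G3719.
SNORD37 to A3717: auuucuucacuUugaccaga
28S 3708 to 3728: ugaaugucaAaGugaagaaau
A 1-letter variant box gave such matches at 13 of the 240 positions (5.42%), 1 of them (C3672) from SNORA48.

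The second candidate, G3885, is the 5′ neighbour of the known site C3886. The letters around them (3875 to 3895, GL000220.1:117223-117243, G3885 and C3886 in capitals) are shown because the peaks touch.
28S 3875 to 3895: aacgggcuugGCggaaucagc
C3886 had 276, 255 and 3.31 CPM in NextSeq controls and 11836, 14599 and 14238 CPM after oxidation, with 1.13 and 1.65 CPM against 1374 and 1457 CPM in the pilot. Its log2 fold change was 9.91 ± 1.91 (SE, QL adjusted p = 0.0359) and 10.25 ± 0.39 (QL adjusted p = 0.00616). G3885 had 64.6, 47.2 and 228 CPM in NextSeq controls and 501, 539.8 and 470.0 CPM after oxidation. The pilot had 63.9 and 72.6 CPM against 194 and 334 CPM. Every oxidized library was above every control in both experiments, but the ends at G3885 amounted to 3.74% ± 0.47 (SD, n = 3) of those at C3886 in oxidized NextSeq libraries and to 18.5% ± 6.20 (SD, n = 2) in the pilot. On the other side of C3886, G3887 held 1.48% ± 0.39 and 45.4% ± 11.1 of its ends. The NextSeq log2 fold change of G3885, on which the study chose it, was 6.38 ± 0.74 (SE) with TMM and 2.15 with library totals, or 8.63 and 8.41 above the median position. In the pilot, which did not choose it, the log2 fold change was 2.21 ± 0.41 (SE, QL adjusted p = 0.0145), a rise under the fold threshold. The difference between the experiments was 3.80 ± 0.83 (QL adjusted p = 0.0266).

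Among the 224 unlisted positions of the segment, 12 were higher after oxidation at an adjusted p under 0.05 in the NextSeq experiment when no fold was asked for, and 10 were lower. Over all 6718 positions tested, 203 were higher and 1262 lower. Those of the segment that were higher were C3699, A3717, U3785, C3788, U3789, A3806, U3813, A3835, A3864, G3867, G3885 and G3887, of which A3717 alone was higher at that threshold with library totals, where 151 unlisted positions were lower and where the fold changes of A3806, U3813, A3835, A3864 and G3887 turned negative. Of these, C3699, U3785, A3806, G3867, G3885 and G3887 touch a known site. U3785, next to A3784, had 211, 221 and 1358 CPM in NextSeq controls and 443, 766 and 719 CPM after oxidation. Its ends were 6.15% ± 0.56 (SD, n = 3) of those at A3784, and in the pilot 5.61% ± 0.88 (SD, n = 2). The log2 fold change was 4.42 ± 0.79 (SE, QL adjusted p = 0.0359) with TMM and 0.11 with library totals, or 6.67 and 6.37 above the median position, and the rise was not past the p threshold without control replicate 1 or 2. The highest position outside the known sites and candidates after oxidation was U3789, 2 nt before G3791, with 98.0, 112 and 1049 CPM in controls and 775, 1495 and 1514 CPM after oxidation. Its log2 fold change was 5.99 ± 1.005 (SE, QL adjusted p = 0.0359), just under the fold threshold, and control replicate 3 overlapped with the oxidized libraries. In the pilot U3789 had 35.3 and 26.5 CPM against 320.0 and 295 CPM, a log2 fold change of 3.56 ± 0.37 (QL adjusted p = 0.00693). C3788, beside it, had 56.7, 29.2 and 789.5 CPM in NextSeq controls and 268, 546 and 487 CPM after oxidation, so that control replicate 3 was above every oxidized library. Its log2 fold change of 5.05 ± 1.23 (SE, QL adjusted p = 0.0371) was past the threshold in 3 of 10 alternatives and was 0.57 with library totals. In the pilot it was 5.69 ± 0.45 (SE, QL adjusted p = 0.00693).

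The pilot's unlisted calls lay mostly in the stretch from A3798 to G3810, around C3807, where its controls had few or no ends. The study's list from the pilot holds positions of this stretch, so the pilot's own values are a description. A3798 had no count in either MiSeq control and 358 and 406 CPM in the oxidized libraries. A3802 likewise had none against 489.5 and 781 CPM, and G3808 none against 516 and 374 CPM. Positions A3798, A3802, G3803, U3804, G3808 and G3810 had both MiSeq controls at 0, so that no fold change can be read there. In the NextSeq experiment, which was independent of that list, the same positions had control ends and gave no call. A3798 had 4.86, 6.84 and 1118 CPM in controls and 7.55, 4.07 and 0 CPM after oxidation, a log2 fold change of -2.00 ± 2.24 (SE, QL adjusted p = 0.565). A3802 had 34.0, 36.1 and 974 CPM against 88.2, 133 and 155 CPM, a log2 fold change of 3.05 ± 1.24 (SE, QL adjusted p = 0.12). The tests turned on control replicate 3, which had 549.7 to 1157 CPM at the 6 positions that follow. Without it, the log2 fold change was 5.27 at U3800 (QL adjusted p = 0.00431), 5.47 at A3802 (0.00612), 4.21 at G3803 (0.0134), 4.51 at U3804 (0.0252), 3.53 at G3805 (0.0252) and 4.61 at G3808 (0.0132), all past the p threshold and under the fold threshold. At A3798 it was 3.06. That fit keeps only controls 1 and 2, which were nearly alike (rank correlation 0.996 over the segment, both from passage 6), so its p-values rest on a narrow spread. When all libraries were kept and scaled by library totals, the log2 fold changes at the 6 positions were -2.64 to -1.47. These values lay 3.63 to 4.79 above the median position. U3792, next to G3791, was called in the pilot, with 28.4 and 29.7 CPM against 1868 and 1529.8 CPM. In the NextSeq experiment it had 128, 128 and 1331 CPM against 7.86, 36.8 and 7.30 CPM, and the log2 fold change was -0.56 ± 1.05 (SE, QL adjusted p = 0.738).

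Because the nuclease does not cleave 3′ of a methylated ribose, the controls carry a separate measure that does not use the oxidized libraries. It is the count at a site over the median count of the unlisted positions within 10 nt on either side. Over the 16 known sites the median of this ratio was 0.124, 0.193 and 0.301 in NextSeq controls 1, 2 and 3, and over the 15 sites where it could be formed it was 0.0456 and 0.0983 in the MiSeq controls. Over the other positions of the segment the medians were 1.07, 1.11, 0.973, 1.05 and 1.04. A ratio under 0.2 was seen at 9, 8 and 7 of the 16 known sites in the NextSeq controls and at 10 and 8 of 15 in the MiSeq controls, against 12.6%, 13.5%, 4.05%, 7.98% and 8.84% of the other positions. Over the 50 known sites in the rest of 28S the medians were 0.108, 0.105, 0.342, 0.0791 and 0.0357.

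A ratio under 0.2 in all 5 control libraries was seen at C3700 (0.0177 to 0.0590), C3840 (0.0297 to 0.0495), U3817 (0 to 0.0863) and A3824 (0.00697 to 0.190). Other known sites had it in some libraries or in none. G3791 had 1.51 and 1.45 in NextSeq controls 1 and 2, 0.732 in control 3 and 0.380 and 0 in the MiSeq controls. C3886 had 1.22 and 1.14 in NextSeq controls 1 and 2, and 0.0148 or less in the other 3 libraries. Both are among the 3 highest oxidized NextSeq peaks of the segment, so a high oxidized count and a deep control gap did not go together there. G3743 stood at 0.384 to 0.842 in all 5. The ratio at A3717 was 0.0191 and 0.0370 in NextSeq controls 1 and 2, 0.671 in control 3, and 0.0596 and 0.0409 in the MiSeq controls. At G3719 it was 0.376 to 0.837, and at G3885 0.266 to 1.08. A3717 thus showed a gap in 4 of 5 control libraries, whereas G3719 and G3885 had no library under 0.2. In NextSeq controls 1 and 2, A3717 had 150 and 300 counts, and the unlisted A3716 and A3722 were about as low (200 and 400, and 100 and 150). Those 2 libraries were also nearly alike over the segment, so there the gap was not particular to A3717. In the MiSeq controls A3717 had 600 and 250 counts, against 7389 and 5132 at A3716 and 10508 and 6138 at A3722. Low unlisted neighbours also lay beside sites under 0.2 in all 5 libraries. U3839, next to C3840, had 50 and 100 counts in MiSeq controls and 100, 2 and 454 in NextSeq controls. C3840 had 450 and 300, and 455, 654 and 952, so the gap was not particular to it. A3816, next to U3817, had 100 and 200 counts against 50 and 152 in NextSeq controls 1 and 2. In control 3 it had 2708 against 600, and in the MiSeq controls 400 and 456 against 0.

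**Figure D4:**
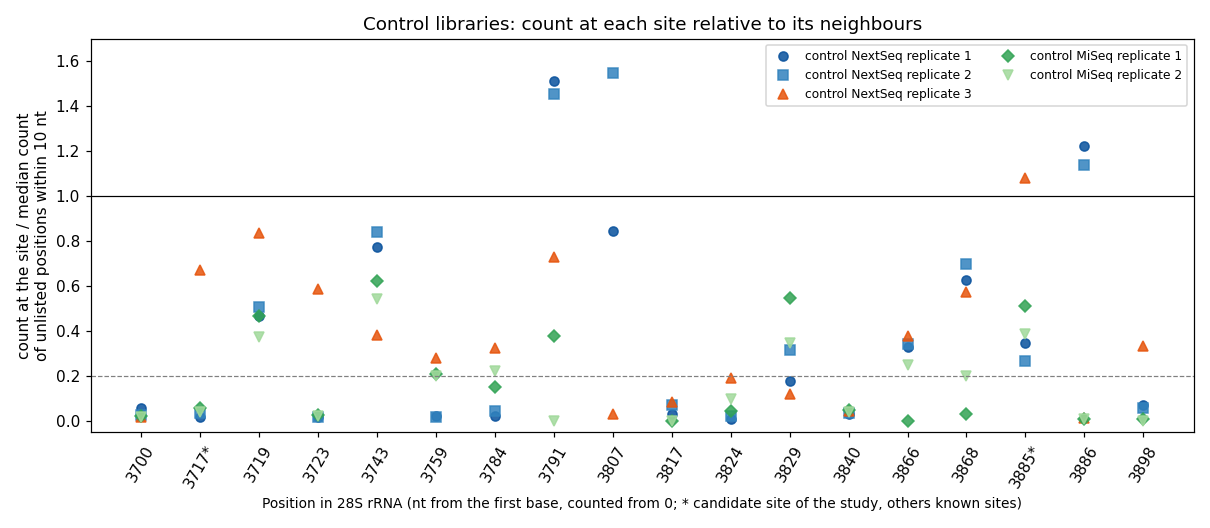
Count at each known site and candidate (starred) over the median count of unlisted positions within 10 nt, in the 5 control libraries; the solid line marks 1 and the dashed line 0.2. Positions 3700, 3817, 3824 and 3840 lie under 0.2 in all 5 libraries, whereas 3791 and 3886 lie above 1 in NextSeq controls 1 and 2.

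The effect of oxidation was also compared between the 2 experiments in a fit of all 10 libraries. Over the segment, 39 positions differed at an adjusted p under 0.05, where 8.20% of all positions did, with 25 of them higher in the NextSeq experiment and 14 in the pilot. The split followed the scaling, with 16 higher in the NextSeq experiment and 66 in the pilot for library totals, and 3 and 14 for counts divided by 50. The known sites among them were A3824 (4.77 ± 1.20 on the log2 scale, NextSeq minus MiSeq, SE, QL adjusted p = 0.0434), A3829 (6.16 ± 1.06, QL adjusted p = 0.015) and C3840 (3.92 ± 0.62, QL adjusted p = 0.0133), which are neighbours. With TMM the enrichment at these sites was the larger in the NextSeq experiment. With library totals the known sites past the threshold were C3807, U3817 and A3829, so that A3824 and C3840 were lost. The difference at C3807, whose oxidized CPM was lower there, was -3.21 ± 0.98 (QL adjusted p = 0.0811) and not past the threshold with TMM. No position differed when either MiSeq control library was left out or with a replicate block, and the count was 14, 15 and 70 without NextSeq control 1, 2 and 3 and 20 to 22 without an oxidized MiSeq library.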

How the data were processed

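PA1 total RNA was taken through RibOxi-seq in 10 libraries. The authors trimmed reads with cutadapt 1.12, collapsed PCR duplicates by a randomer and adjoining sequence, aligned with TopHat2 2.1.1 to hg19 (GRCh37) with 2 rRNA copies, and deposited, after SAMtools 0.1.19 and BEDtools, raw counts of 3′-ends per 18S and 28S position. Their DESeq2 tables (fold changes, p-values) and site calls were not used for values. Rows naming no rRNA position held 0 counts. Groups came from the labels.

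Each experiment was fitted with edgeR 4.0.16 (R 4.3.3): TMM, positions with at least 1 count, quasi-likelihood test, Benjamini-Hochberg adjustment over all positions. The SE is the absolute log2 fold change over the square root of F. The difference was the interaction over all 10 libraries. The tests were checked on simulated data. Alternatives included DESeq2 1.42.0, other scalings and filters, and each library left out. Guides came from the annotated genes in GRCh37. Positions named were the known sites, the candidates, the pilot's list, up to 10 other calls, the 5 highest unlisted positions and the 5 largest differences per direction, and neighbours. Members and lists were chosen with earlier results of these data known.

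Control and oxidized libraries with the same replicate number did not deviate together (r from -0.0161 to 0.0239), so no pairing was assumed, although replicate 3 of both NextSeq groups shares a passage.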

Additional observations from a re-analysis of the deposited data

Results flagged for a closer look

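The effect of oxidation differed between the NextSeq experiment and the MiSeq pilot at 18 positions named here, by the test of the difference itself in edgeR. The values that follow are log2 differences, NextSeq minus MiSeq, and the CPM behind them were given for the main positions above. Among known sites they were A3824 (4.77), A3829 (6.16) and C3840 (3.92), and among candidates G3885 (3.80). At unlisted positions called in the pilot and not in the NextSeq experiment they were A3773 (-8.65), A3774 (-9.77) and U3792 (-6.98).

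At the other positions 1 group had no count in any library, so the fitted values depend on the prior count and are no bound. Both MiSeq controls were at 0 at A3802 (-14.65), G3803 (-14.74), U3804 (-14.06), G3808 (-14.85) and G3810 (-14.45). Both oxidized MiSeq libraries were at 0 at U3696 (16.81), U3703 (15.73), A3827 (17.18), U3843 (17.34) and C3863 (15.89). At G3674 (-14.27) all 3 oxidized NextSeq libraries were at 0. None of these differences passed the threshold without either one of the MiSeq control libraries.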

How the results depend on the processing

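Of 167 recomputed main values, 130 stayed within 1.5 times (counts) or within the spread between libraries, and 37 moved. No other known-site count moved than these: with an adjusted p under 0.0001 the known sites called were 0 in both experiments, and with a replicate block 0 in the pilot, where the block leaves few degrees of freedom. A3717 was called already, so putting it in place of the entry at 3719 adds 1 site by construction. Leaving out single libraries gave 15 known sites in the NextSeq experiment and 14 or 15 in the pilot. DESeq2 called 13 in the NextSeq experiment, where its adjusted p was NA at A3717, A3723 and A3784, and 15 in the pilot. The replicate block (replicate 3 of both NextSeq groups shares passage 4, but libraries of 1 number did not deviate together) gave 15 known sites and 3 other positions in the NextSeq experiment.

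The 2 other NextSeq positions became 1 with DESeq2, library totals, counts divided by 50, a log2 fold change above 7 or the entry at 3719 replaced by A3717, 0 with an adjusted p under 0.0001 or with DESeq2 at that p and a log2 fold change above 7, 12 with any rise, and 2 to 7 with a library left out. The 16 other pilot positions became 0 with the replicate block or an adjusted p under 0.0001, and 54 with any rise. The NextSeq median log2 fold change of 10.90 became 6.42 with library totals. The pilot's 9.62 became 9.37 with library totals, 9.96 with 18S and 28S fitted separately, 9.08 with counts divided by 50, 9.85 with the replicate block, 9.80 with the oxidized libraries summed (chosen after seeing the data) and 9.60 to 9.90 with a library left out. The known sites' share of oxidized counts was 94.0% and 84.6% with 1 nt added on each side, and 94.7% and 78.6% with A3717 for the entry at 3719. The 39 positions that differed between experiments became 82 with library totals, 17 with counts divided by 50, 96 with DESeq2, 0 with the replicate block and 0 to 70 with a library left out. The cause was not tested.

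Of 972 recomputed fold changes at named positions, 782 kept direction and side of the threshold, 119 lost it, 32 gained it, and 39 reversed, of known sites only G3719 among them. The NextSeq calls at A3806 and G3887 (7 of 11 alternatives each, besides the reversal), C3788 (7 of 10) and A3835 (6 of 11) were lost most often. With library totals, which moved all NextSeq positions by -4.02, the values reversed at U3696 (-2.29), U3703 (-2.48), G3734 (-2.21), U3744 (-2.83), A3758 (-4.05), C3760 (-3.26), C3781 (-2.71), U3795 (-4.20), U3800 (-1.99), A3802 (-1.47), G3803 (-2.64), U3804 (-1.76), G3805 (-2.27), A3806 (-0.89), G3808 (-2.17), G3810 (-2.84), A3812 (-2.84), A3835 (-1.41), U3843 (-2.28), C3863 (-2.08) and G3887 (-1.03), and the pilot's at C3760 (-0.020). With counts divided by 50 they were A3758 (-0.39), U3795 (-0.33) and, in the pilot, C3760 (-0.016). With the replicate block they were A3773 (0.17), A3798 (1.90), U3801 (2.86) and A3827 (0.045). With a library left out, the NextSeq values ranged from -0.73 to 0.22 at G3719 (reversed without oxidized replicate 1), from -0.0097 to 0.85 at A3758 (without control 1), from -0.19 to 2.50 at U3795 (without control 1 or 2) and from -1.03 to 0.047 at A3827 (without control 2). Without control 3 they reversed at A3773 (range -2.40 to 1.29), U3792 (-1.67 to 0.73), A3798 (-3.01 to 3.06) and U3801 (-1.34 to 3.97), and without control 1 the pilot reversed at U3744 (-0.61 to 0.048). Depth limits the oxidized MiSeq libraries most, where 1 step of 50 counts is far above the value of many unlisted positions.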
